A study of Homo sapiens with 4 samples.

Results

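The spliced noncoding host genes of small nucleolar RNAs (snoRNAs) SNHG1, SNHG3, SNHG5, SNHG6, SNHG7, SNHG8, SNHG12, SNHG15, GAS5 and ZFAS1 were followed in prostate cancer cells treated with siRNA against RRM2. These 10 genes were taken by symbol from a count table of 27275 rows, and all 10 passed the expression filter, which left 15840 genes. RRM2 encodes the small subunit of ribonucleotide reductase, the enzyme that makes deoxyribonucleotides. The cells were C4-2, a castration-resistant subline of the androgen-sensitive LNCaP line, transfected with RNAiMAX and either a SMARTpool of RRM2 siRNAs or, as control, a scrambled siRNA. The study checked knockdown 2 or 3 days after transfection, and no source used here gives the time at which RNA was collected for sequencing. Total RNA was extracted, and 2 libraries per group were sequenced. The study does not state how RNA was selected for the libraries. The comparison was made to learn what RRM2 does in prostate cancer cells.

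A snoRNA host gene is transcribed and spliced like an mRNA gene, and its snoRNAs are trimmed out of the excised introns. Box C/D snoRNAs guide ribose methylation and box H/ACA snoRNAs guide pseudouridylation, mostly of ribosomal RNA, while a few act in cleavage of the ribosomal RNA precursor. The spliced exons of such genes hold no long conserved reading frame, and for several of them the spliced RNA is known to be removed by nonsense-mediated decay when ribosomes engage it. Many host genes, GAS5 being the classic case, start with a run of pyrimidines (a terminal oligopyrimidine tract), as ribosomal protein genes do. GAS5 takes its name, growth arrest-specific, from RNA that accumulates in arrested mouse fibroblasts.

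The start regions are shown first because many host genes are known to start with a pyrimidine run, as ribosomal protein genes do. Start regions of ribosomal protein genes were not examined here. Each line runs in the direction of transcription, 30 bases long, with 10 bases before the start that RefSeq gives in GRCh38.p14 and 20 bases from it on. Capitals mark the longest unbroken run of C and T, which need not begin at the start. That of SNHG7 lies wholly before the start.
SNHG1, chr11:62855866-62855895, minus strand: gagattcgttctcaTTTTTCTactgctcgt
SNHG3, chr1:28505933-28505962, plus strand: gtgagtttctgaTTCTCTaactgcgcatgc
SNHG5, chr6:85678714-85678743, minus strand: gcacttcggTCTTTTacgtcggccttcgcg
SNHG7, chr9:136728165-136728194, minus strand: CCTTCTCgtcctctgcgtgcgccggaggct
SNHG8, chr4:118278752-118278781, plus strand: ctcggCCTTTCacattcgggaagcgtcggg
SNHG12, chr1:28581854-28581883, minus strand: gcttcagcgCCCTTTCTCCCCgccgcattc
ZFAS1, chr20:49278632-49278661, plus strand: gccattcgTTCTTTCgcgtctgcggtgccc

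For GAS5 the RefSeq promoter entry lies 1058 bases upstream of the start in the count table, so the first 20 bases of the GENCODE v29 transcript that starts nearest to the count table's own start are shown for it. The same is given for SNHG15, where that transcript starts 4 bases away, and beside the RefSeq window for ZFAS1.
GAS5, chr1:173867968-173867987, minus strand: TTTCgaggtaggagtcgact
SNHG15, chr7:44986637-44986656, minus strand: ggcgtcagTCTTggctggca
ZFAS1 at its count table start, chr20:49278178-49278197, plus strand: cgggggCCCagggtggagag

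RefSeq promoter entries matched 8 of the 10 genes, all but SNHG6 and SNHG15. An unbroken run of at least 6 C or T bases stood in the 30-base window of 7 of these 8, and the exception was GAS5 at its upstream entry, against 30.4% of 34943 promoters. The motif TATAA, searched on the gene's own strand from 50 to 15 bases before the start, was found in SNHG5, SNHG7, SNHG8, SNHG12 and ZFAS1, or 5 of 8, against 4.32% of all promoters. CACGTG, which reads the same on both strands and was searched over the 300-base promoters, was found in 1 of 8, SNHG7, against 7.23% of promoters. These are letter matches only. The entry for ZFAS1 starts 464 bases inside the start of its row in the count table. At the row's own start, the longest run in the first 20 bases of the GENCODE v29 transcript is 3 bases. The bases before that start were not examined, so whether ZFAS1 would be counted there is not known. The entry for SNHG12 starts 19 bases upstream of its row's start, and its marked run lies wholly before the row's start. The count of 7 thus holds for the RefSeq starts only.

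The RRM2 siRNA libraries held 29941671 and 28941206 estimated counts, and the scrambled siRNA libraries 28508906 and 27844121. RRM2 itself had 118 and 125 normalized counts (counts scaled to a common library size) with RRM2 siRNA and 1333 and 1239 with scrambled siRNA, with a log2 fold change of -3.41 (SE 0.08, where SE is the standard error, and by the quasi-likelihood test of edgeR an adjusted p of 2.60e-13). All 10 markers of an androgen-responsive prostate line passed the filter, and they summed to 310948 to 314867 normalized counts with RRM2 siRNA and 341965 to 355972 with scrambled siRNA. Of 12 markers of other cell types, 6 (PTPRC, CD3E, MS4A1, DCN, KRT5 and TP63) stayed under 5 normalized counts in every library. The 12 summed to 3375 to 3518 with RRM2 siRNA and 2863 to 2883 with scrambled siRNA. CD68, COL1A1, LYZ and PECAM1 were higher at an adjusted p under 0.05 in the edgeR test. PECAM1 had only 14.1 and 19.3 normalized counts with RRM2 siRNA and 6.05 and 6.25 with scrambled siRNA. VWF (log2 fold change -0.23) and COL3A1 (-0.24) did not pass. The part of the 12 markers in the results below was not tested. Structural RNA genes (ribosomal, small nuclear and small nucleolar RNA and the like) took 4.52% and 8.28% of the counts in RRM2 siRNA replicates 1 and 2 and 3.93% and 4.08% in the scrambled siRNA replicates, so RRM2 siRNA replicate 2 stood apart. No source used here states whether separate cultures gave the 2 libraries of each group, so a p-value covers only the spread between libraries, and that spread may be technical.

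With RRM2 siRNA, most of the snoRNA host genes were lower than with scrambled siRNA. By the quasi-likelihood test of edgeR at an adjusted p under 0.05, 7 of the 10 were lower (SNHG1, SNHG3, SNHG5, SNHG8, SNHG15, GAS5 and ZFAS1), against 25.0% of all genes tested. SNHG6 was the 1 host gene that was higher, against 25.4% of all genes, and SNHG7 and SNHG12 did not pass, so that 8 of 10 passed in either direction, against 50.4% of all genes. The median log2 fold change of the 10 was -0.33, and that of all genes tested was -0.00. The changes were moderate: 1 host gene, SNHG3, also passed the study's fold change threshold of 1.5 as lower, against 5.25% of all genes, and 0 of the 10 did so as higher, against 5.90% (11.1% of all genes in either direction). With no overlap between the groups, 8 of the 10 were lower, against 37.3% of all genes, and 9 were lower or higher, against 75.0%. Summed over the 10, normalized counts were 10114 and 10150 with RRM2 siRNA and 12532 and 13340 with scrambled siRNA. In bulk RNA, fewer cells of a type and less RNA per cell cannot be told apart.

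**Figure D1:**
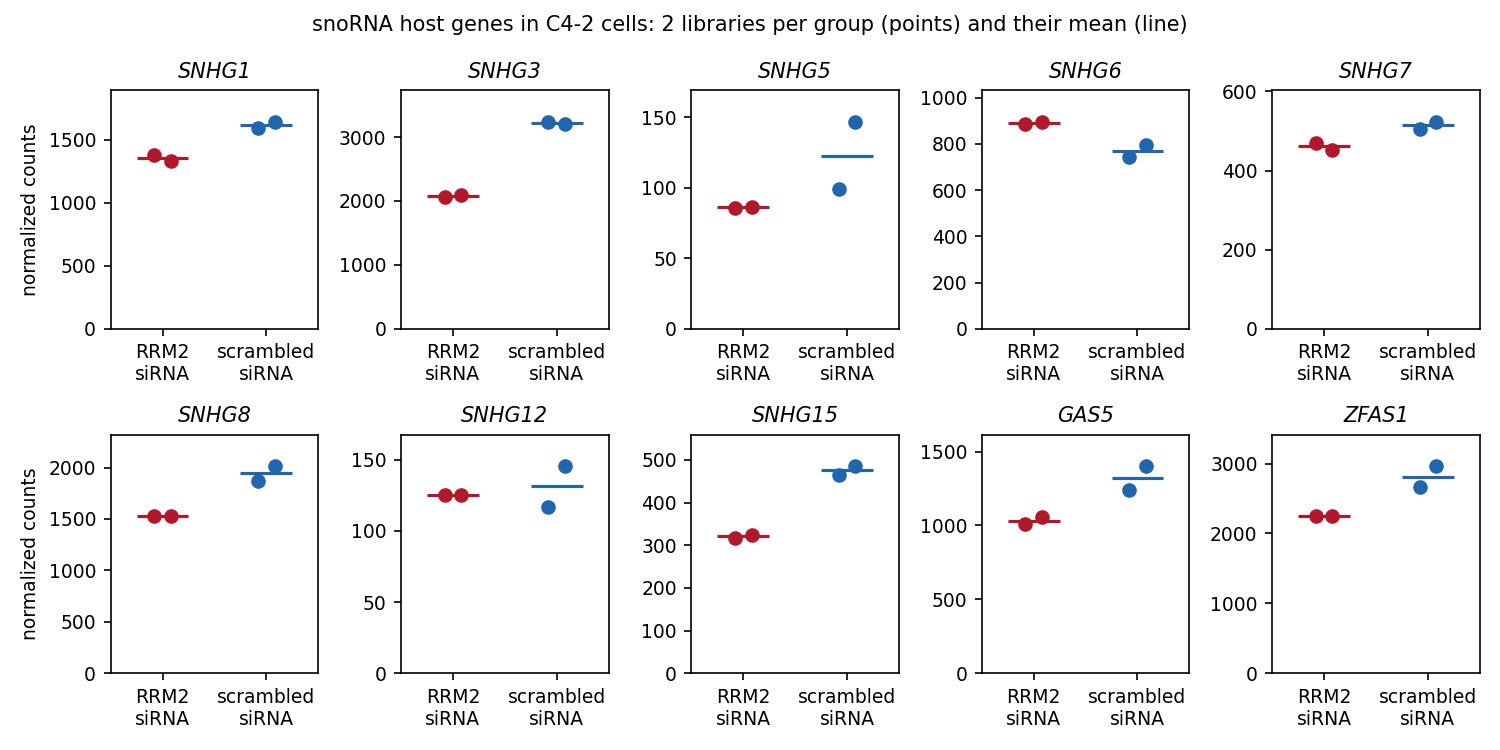
Normalized counts of the 10 snoRNA host genes in C4-2 cells. Each panel is 1 gene with the y axis from 0; points are the 2 libraries of RRM2 siRNA (red, left) and of scrambled siRNA (blue, right), and lines are their means. Red points lie below both blue points in 8 panels, above both in the SNHG6 panel, and between them in the SNHG12 panel.

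Of the 4 host genes of box H/ACA snoRNAs, 3 were lower, against 25.0% of all genes, and these 3 include the strongest falls. SNHG3 (chromosome 1, 28505943 to 28510892) hosts SNORA73A and SNORA73B, the U17 snoRNAs that act in cleavage of the ribosomal RNA precursor. It had 2064 and 2099 normalized counts with RRM2 siRNA and 3241 and 3210 with scrambled siRNA. The RRM2 siRNA libraries were well below both controls and differed little from each other. The log2 fold change was -0.63 (SE 0.04, adjusted p = 2.41e-08), and the level fell by 35.5%. SNHG15 (chromosome 7, 44983028 to 44986660), the host of SNORA9, had 317 and 324 normalized counts with RRM2 siRNA and 464 and 486 with scrambled siRNA. Its groups did not overlap either, and it fell by 32.5% (log2 fold change -0.57, SE 0.07, adjusted p = 1.42e-05).

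SNHG8 (chromosome 4, 118278762 to 118279823), the host of SNORA24, had 1526 and 1529.5 normalized counts with RRM2 siRNA and 1870.1 and 2017 with scrambled siRNA. The 2 RRM2 siRNA libraries were nearly equal and both lay below the lower control. Its log2 fold change was -0.35 (SE 0.05, adjusted p = 3.68e-05). SNHG7 (chromosome 9, 136724594 to 136728184), the host of SNORA17A and SNORA17B, had 471 and 453 normalized counts with RRM2 siRNA and 505 and 524 with scrambled siRNA. Both RRM2 siRNA values were below both controls, but the difference did not pass, at a log2 fold change of -0.15 (SE 0.07, 95% interval -0.30 to -0.01, adjusted p = 0.0698). Without scrambled siRNA replicate 1 it passed, at -0.19 (adjusted p = 0.0458).

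Among the host genes of box C/D snoRNAs, 4 of 5 were lower, against 25.0% of all genes. The other 1 was higher, against 25.4%. GAS5 (chromosome 1, 173863901 to 173867987) carries a row of box C/D snoRNAs in its introns, of which SNORD44, SNORD47 and SNORD74 to SNORD81 are listed in the table. It had 1010.0 and 1055 normalized counts with RRM2 siRNA and 1241 and 1403 with scrambled siRNA. All RRM2 siRNA values lay under all control values, and the controls were further apart from each other than the RRM2 siRNA libraries were. GAS5 averaged 1033 ± 32.0 with RRM2 siRNA and 1322 ± 115 with scrambled siRNA (SD, n = 2 each). Its log2 fold change was -0.36 (SE 0.06, 95% interval -0.48 to -0.23, adjusted p = 0.000131), and it fell by 21.9%.

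ZFAS1 (chromosome 20, 49278178 to 49289258), the host of SNORD12, SNORD12B and SNORD12C, had 2253 and 2249 normalized counts with RRM2 siRNA and 2662 and 2968 with scrambled siRNA. The groups were separate, and again the controls differed more than the RRM2 siRNA libraries. Its log2 fold change was -0.32 (SE 0.05, adjusted p = 0.000116). SNHG1 (chromosome 11, 62851988 to 62855888) hosts SNORD22 and SNORD25 to SNORD31. It had 1376 and 1332 normalized counts with RRM2 siRNA and 1591 and 1644 with scrambled siRNA, without overlap. The fall was smaller than that of GAS5 in log2 terms, at -0.26 (SE 0.05, adjusted p = 0.000383), but a difference between the 2 genes was not tested.

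SNHG5 (chromosome 6, 85677007 to 85678733), the host of SNORD50A and SNORD50B, was the least covered member. It had 85.7 and 86.3 normalized counts with RRM2 siRNA and 98.7 and 147 with scrambled siRNA. The groups did not overlap, but the 2 controls were far apart. The log2 fold change of -0.51 (SE 0.20, adjusted p = 0.0447) rested on scrambled siRNA replicate 2, without which it was -0.20 (adjusted p = 0.489), and DESeq2 gave an adjusted p of 0.139.

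SNHG6 went the other way. SNHG6 (chromosome 8, 66921930 to 66925542), the host of SNORD87, had 886 and 897 normalized counts with RRM2 siRNA and 742 and 796 with scrambled siRNA. Both RRM2 siRNA libraries were above both controls. The log2 fold change was 0.21 (SE 0.06, 95% interval 0.09 to 0.33, adjusted p = 0.0051), or 15.9% higher, and DESeq2 gave an adjusted p of 0.0725. SNHG12 (chromosome 1, 28578538 to 28581854), which hosts snoRNAs of both kinds (SNORA16A, SNORA44, SNORA61 and SNORD99), had 125.2 and 124.9 normalized counts with RRM2 siRNA and 117 and 146 with scrambled siRNA. The RRM2 siRNA libraries fell between the controls. Its log2 fold change of -0.07 had a 95% interval of -0.42 to 0.28 (adjusted p = 0.760), and without scrambled siRNA replicate 2 it was 0.10 (adjusted p = 0.744).

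Because structural RNA was raised in RRM2 siRNA replicate 2, each RRM2 siRNA library was also set against the mean of the controls by itself. The median log2 ratio of the 10 host genes was -0.33 in replicate 1 and -0.32 in replicate 2. In each of the 2 libraries 8 of the 10 lay below both controls, 1 (SNHG6) above both and 1 (SNHG12) between them. Of all genes tested, 43.4% lay below both controls in replicate 1 and 43.2% in replicate 2. Above both controls lay 43.5% in replicate 1 and 43.3% in replicate 2. For GAS5 the log2 ratios were -0.39 in replicate 1 and -0.33 in replicate 2, for SNHG3 -0.64 and -0.62, and for SNHG6 0.20 and 0.22. No host gene changed its side of the control mean between the 2 RRM2 siRNA libraries. The same held for the 75.0% of all genes tested whose groups did not overlap. By contrast, the 27 small structural RNA genes tested had a median log2 ratio of -0.25 in replicate 1 and 2.17 in replicate 2. Of the 33 structural RNA rows tested, some are copies with identical counts. In replicate 1, 17 of the 33 exceeded both controls, against 43.5% of all genes. In replicate 2, 29 did so, against 43.3% of all genes. With the structural RNA genes left out before scaling, the 10 host genes gave the same counts, 7 lower and 1 higher.

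**Figure D2:**
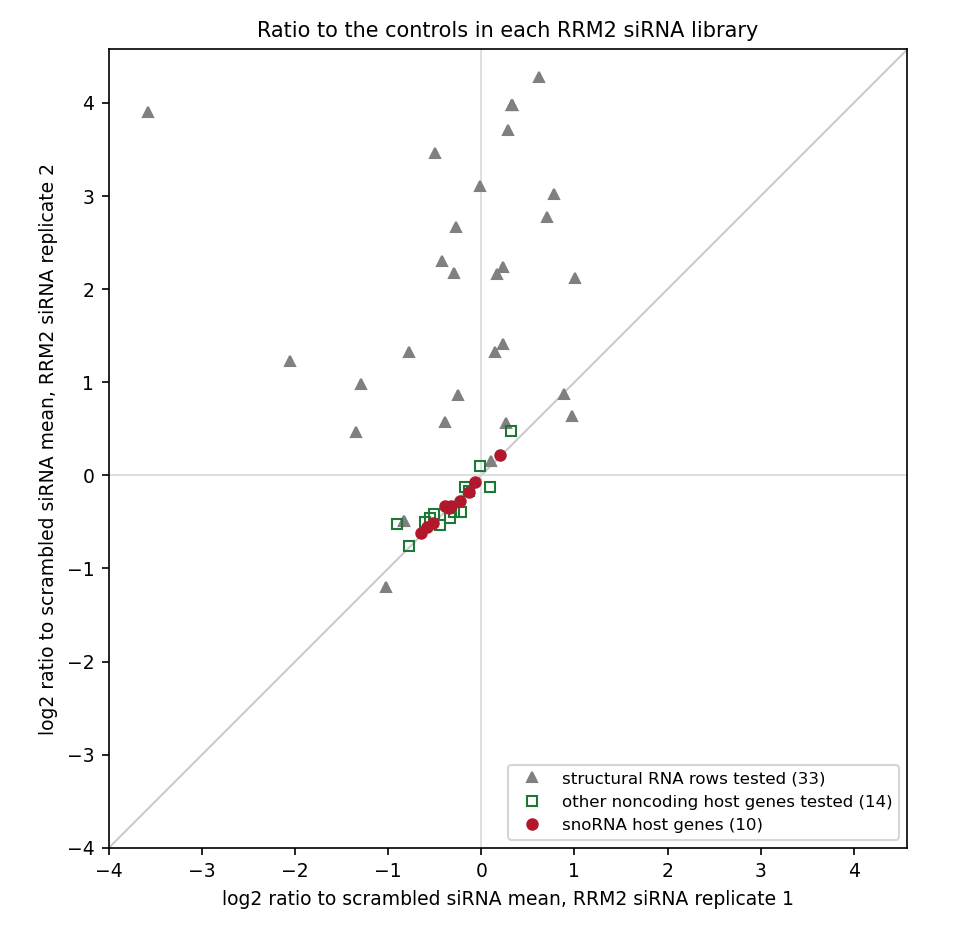
Log2 ratio of normalized counts to the mean of the scrambled siRNA libraries, in RRM2 siRNA replicate 1 (x axis) and replicate 2 (y axis). Circles are the 10 snoRNA host genes, squares the 14 other noncoding host genes tested, triangles the 33 structural RNA rows tested, and the diagonal marks equal ratios. The host genes lie on or near the diagonal, whereas most triangles lie far above it.

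The snoRNAs themselves were hardly counted. The table lists 34 snoRNAs of the 10 host genes, of which 22 had 0 counts in all 4 libraries after rounding, which for each library allows up to 3 counts. Summed over the 34, there were 36 and 167 counts in RRM2 siRNA replicates 1 and 2 and 31 and 41 in the scrambled siRNA replicates. SNORA73A had 9 and 55 counts with RRM2 siRNA and 6 and 16 with scrambled siRNA. SNORA73B had 15 and 66 counts with RRM2 siRNA and 5 and 11 with scrambled siRNA. SNORD22 had 3 and 27 counts with RRM2 siRNA and 16 and 7 with scrambled siRNA. In all 3 the high value was RRM2 siRNA replicate 2, the library with the raised structural RNA, while their hosts SNHG3 and SNHG1 were lower in both RRM2 siRNA libraries. These were the 3 snoRNAs with at least 10 counts in any library. In the edgeR test SNORA73B was higher by a log2 fold change of 2.27 (SE 0.62, adjusted p = 0.00693), but without RRM2 siRNA replicate 2 it was 0.77 (adjusted p = 0.309), and DESeq2 gave an adjusted p of 0.115. SNORA73A (1.47, adjusted p = 0.0709) and SNORD22 (0.32, adjusted p = 0.713) did not pass. The part of the raised structural RNA in these values was not tested.

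Levels of the host genes can be compared with each other only per length. In CPM (counts scaled to the library size) per kilobase of GENCODE v29 exons, SNHG8 stood highest at 85.7 with RRM2 siRNA and 109 with scrambled siRNA, and SNHG12 was among the lowest at 3.07 with RRM2 siRNA and 3.22 with scrambled siRNA. With RRM2 siRNA the order was SNHG8, SNHG6 (65.6), ZFAS1 (48.2), SNHG3 (32.8), SNHG1 (30.2), GAS5 (24.5), SNHG7 (6.43), SNHG15 (3.33), SNHG12 and SNHG5 (2.87). No neighbours in this order had overlapping values. With scrambled siRNA, ZFAS1 (60.2) came before SNHG6 (56.6), with overlapping values, and SNHG5 (4.10) overlapped SNHG15 (4.94) above it and SNHG12 below it. No source used here names the isoforms behind the counts, so these lengths are approximate.

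Several host genes share their locus with another gene, and no source used here says whether counting used strand. RCC1, the nucleotide exchange factor of Ran, starts at the same base as SNHG3 on the same strand and covers all 4950 bases of it. RCC1 had 1762 and 1723 normalized counts with RRM2 siRNA and 2443 and 2529 with scrambled siRNA. Like SNHG3 it was lower in both RRM2 siRNA libraries, at -0.51 in log2 fold change (SE 0.05, adjusted p = 3.37e-07). The counts of both are not whole numbers, so the way reads were split between them is uncertain.

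The pairs that start head to head gave other pictures. ZNFX1, a zinc finger NFX1-type helicase gene, starts 41 bases from ZFAS1 on the other strand and overlaps it by 42 bases. It had 5070 and 5437 normalized counts with RRM2 siRNA and 4175 and 3846 with scrambled siRNA. ZNFX1 was thus higher where ZFAS1 was lower, at a log2 fold change of 0.39 (SE 0.05, adjusted p = 8.56e-06). The log2 ratio of ZFAS1 to ZNFX1 was -1.17 and -1.27 with RRM2 siRNA and -0.65 and -0.37 with scrambled siRNA. SLC3A2, the heavy chain of amino acid transporters, starts 124 bases from SNHG1, and its log2 fold change was -0.07 (SE 0.05, adjusted p = 0.204) with overlapping groups. ZBTB37, which starts 95 bases from GAS5, showed -0.26 in log2 fold change (SE 0.18, adjusted p = 0.244), also with overlapping groups.

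The remaining neighbours overlap the far ends of their host genes on the other strand. MCMDC2, an MCM domain gene that overlaps SNHG6 by 119 bases, was lower (log2 fold change -0.47, SE 0.13, adjusted p = 0.00707) where SNHG6 was higher. FAM69B overlaps SNHG7 by 125 bases and was lower (log2 fold change -0.25, SE 0.05, adjusted p = 0.000369). TRNAU1AP, a selenocysteine tRNA-associated protein gene that overlaps SNHG12 by 8 bases, showed 0.00 in log2 fold change (SE 0.06, adjusted p = 0.997).

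**Figure D3:**
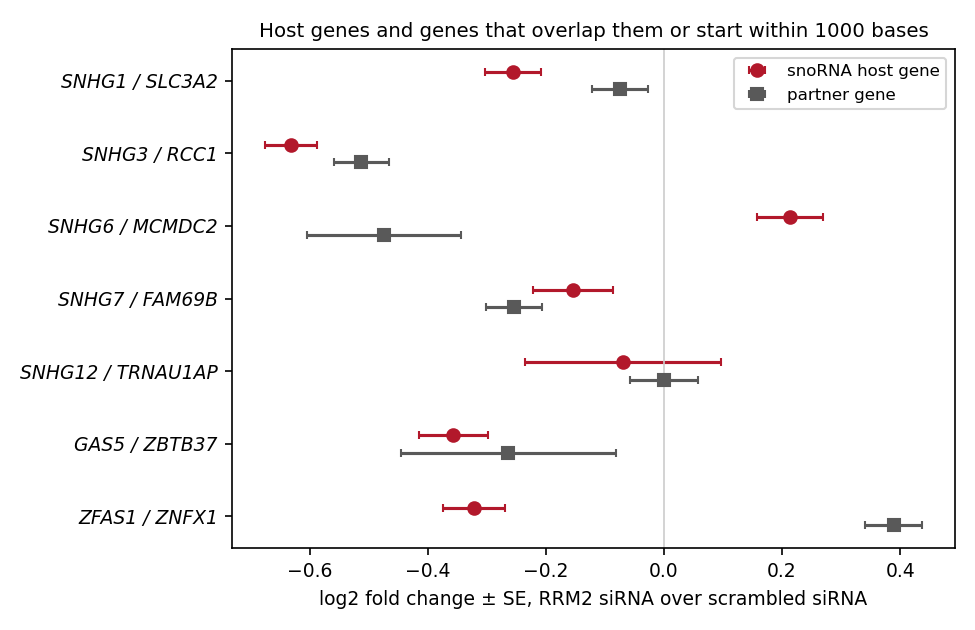
Log2 fold change of RRM2 siRNA over scrambled siRNA for host genes (circles) and the genes that overlap them or start within 1000 bases (squares), with bars of 1 standard error from the edgeR fit on 2 libraries per group. Both genes of the SNHG3 and RCC1 pair lie below 0, and the genes of the ZFAS1 and ZNFX1 pair and of the SNHG6 and MCMDC2 pair lie on opposite sides of 0.

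Other host genes were examined as lists written from general knowledge. Of 17 further noncoding host genes, 14 were tested, with a median log2 fold change of -0.37. At an adjusted p under 0.05 in the edgeR test, 10 were lower, 1 was higher and 3 did not pass. Of all genes tested, 25.0% were lower and 25.4% higher. DANCR, the host of SNORA26, had 1299 and 1312 normalized counts with RRM2 siRNA and 2196 and 2249.8 with scrambled siRNA, the largest change of this list. Its log2 fold change was -0.77 (SE 0.05, adjusted p = 5.79e-09), and SNHG4 followed at -0.70, SNHG17 at -0.55 and SNHG16 at -0.51. The single one that was higher was SNHG9, named here after its value was seen, with 242 and 269 normalized counts with RRM2 siRNA and 182 and 205 with scrambled siRNA (log2 fold change 0.40, adjusted p = 0.00955). That call was lost with DESeq2, without RRM2 siRNA replicate 2 and without scrambled siRNA replicate 1.

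Protein-coding genes that carry snoRNAs in their introns were also mostly lower. In the edgeR test all 23 ribosomal protein host genes were lower, against 25.0% of all genes, and 0 were higher, against 25.4%. Their median log2 fold change was -0.28, with a range from -0.46 to -0.19. On the same counts, DESeq2 and limma voom each also called 23 of them lower and 0 higher. RPS2 was lowest at -0.46, followed by RPL13A at -0.42, RPL23A at -0.41 and RPL5 at -0.36. Ribosomal protein genes have many processed pseudogenes, and their counts are uncertain to that extent. The row named RPL21 is placed on chromosome 10 (120354661 to 120355223), so whether it counts the host gene is uncertain. None of the 23 passed the fold change of 1.5, against 11.1% of all genes in either direction.

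Of 22 other protein-coding host genes, 18 were lower, against 25.0% of all genes, and 3 did not pass. The 1 that was higher, against 25.4% of all genes, was NAP1L4 (log2 fold change 0.11), named after its value was seen. The median log2 fold change of the 22 was -0.32. The largest falls were those of DKC1, the pseudouridine synthase of box H/ACA particles, at -0.84, NOP56, a core protein of box C/D particles, at -0.78, the nucleolar protein gene NCL at -0.71 and the translation initiation helicase EIF4A1 at -0.67. DKC1 had 1563 and 1473 normalized counts with RRM2 siRNA and 2753 and 2678 with scrambled siRNA. NOP56 had 1498 and 1522 with RRM2 siRNA and 2621 and 2565 with scrambled siRNA, so that neither gene's groups overlapped.

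The proteins that bind snoRNAs or assemble their particles followed the same direction in most cases. Of 18 such genes, which include DKC1 and NOP56 again, edgeR gave 12 lower, against 25.0% of all genes. It gave 0 higher, against 25.4% of all genes, and 6 did not pass. The median log2 fold change of the 18 was -0.31. None was higher with DESeq2, with limma voom or at an unadjusted p under 0.05 either. Besides DKC1 and NOP56, the assembly ATPase RUVBL1 had a log2 fold change of -0.73 and the ribose methyltransferase FBL one of -0.66. The H/ACA proteins NOP10 and GAR1 did not pass, at log2 fold changes of -0.10 and -0.07. Factors of nonsense-mediated decay, the pathway known to remove several spliced host RNAs, gave counts near those of all genes: of 15 tested, 3 were higher and 3 lower, against 25.4% and 25.0% of all genes, and 9 did not pass, with a median log2 fold change of 0.05. Among those that passed, UPF2 had a log2 fold change of -0.25, SMG6 0.20, EIF4A3 -0.18 and PNRC2 0.17.

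**Figure D4:**
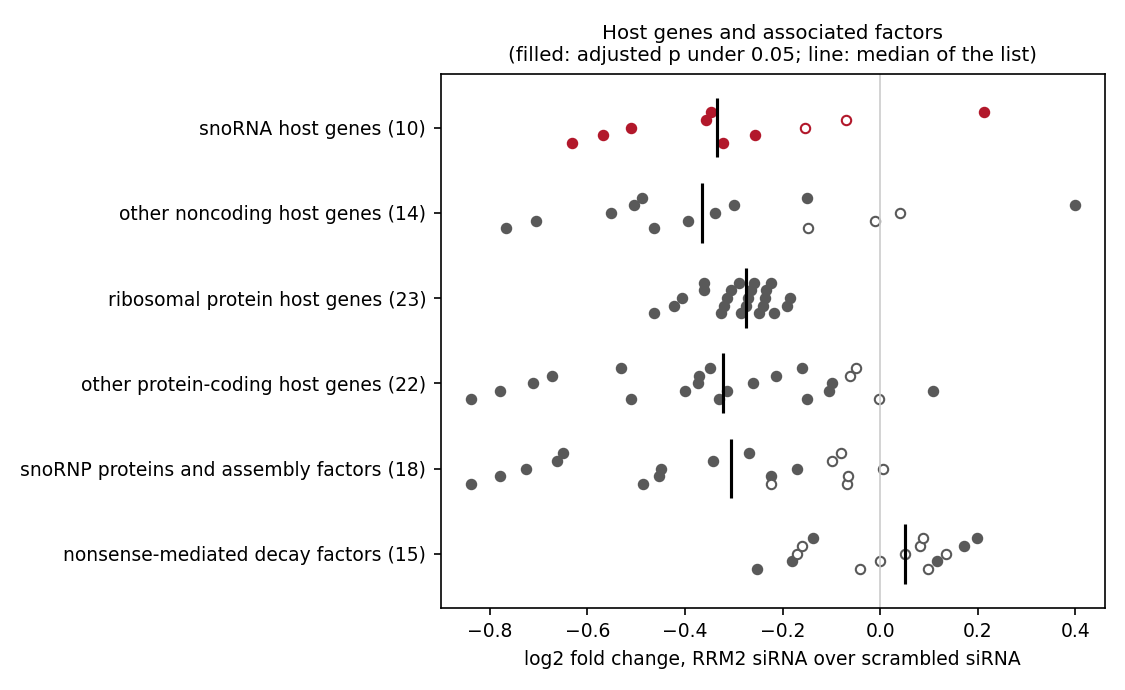
Log2 fold change of RRM2 siRNA over scrambled siRNA for each gene of the 6 lists (rows), with the number of genes tested in parentheses. Filled points passed an adjusted p of 0.05 in the edgeR test, open points did not, and black lines are the medians, at -0.33 for the 10 snoRNA host genes and 0.05 for the decay factors.

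The genes whose levels were most like those of GAS5 over the 4 libraries were found by the Euclidean distance of log2 CPM, centred per gene, among 12329 genes that averaged at least 100 normalized counts. They were EXOSC1, a subunit of the RNA exosome, at a distance of 0.0262, KCNK5, a potassium channel gene, at 0.0262, and RPS15A, a protein of the small ribosomal subunit, at 0.0338, where the median over all genes compared was 0.401. Of the other host genes, ZFAS1 ranked 28th at 0.0593 and SNHG8 42nd at 0.0645, whereas SNHG6 ranked 9197th at 0.570. With 4 libraries this is a description of nearness only. RPS15A had 10719 and 10977 normalized counts with RRM2 siRNA and 13328 and 14753 with scrambled siRNA, and like GAS5 it was higher in scrambled siRNA replicate 2 than in replicate 1.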

How the data were processed

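Libraries of C4-2 cells transfected with RRM2 siRNA or scrambled siRNA, 2 per group, were analysed. The authors deposited a single table of estimated counts, which Partek Flow produced (its version is not stated) and which is not normalized; 71.0% to 71.7% of values per library are whole. Aligner, annotation, genome build and use of strand were not given in the sources used here. Among symbols on the same chromosome in RefSeq GRCh38.p14, 99.9% overlapped their RefSeq position. Dates stood in place of 27 symbols, and these rows (0.161% to 0.172% of counts) are not named.

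Counts were rounded, filtered (filterByExpr), scaled with TMM and tested in edgeR 4.0.16 (glmQLFTest, R 4.3.3), with Benjamini-Hochberg adjustment over 15840 genes. The study's thresholds, an adjusted p of 0.05 and a 1.5-fold change, were used for calls, and lists were counted without the fold threshold. Libraries of a group varied with a coefficient of variation of 3.87% (common dispersion 0.00150). Host genes and lists were chosen with earlier results of these data known. Named are all members, up to 4 genes per list with the largest change among those that passed and averaged at least 100 normalized counts, neighbours, snoRNAs with at least 10 counts in a library and the 3 genes nearest GAS5. NOP10, GAR1, SNHG9 and NAP1L4 were named after their values were seen. Alternatives were other scalings, filters and fold thresholds, DESeq2 1.42.0, limma voom 3.58.1, a replicate block, leaving out structural RNA genes, and leaving out each library. The fits were tested on simulated data.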

Additional observations from a re-analysis of the deposited data

How the results depend on the processing

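SNHG1, SNHG3, SNHG8, SNHG15, GAS5 and ZFAS1, 6 of the 7 host genes that were lower, passed in the same direction under all 12 other settings, the fold thresholds aside. DESeq2 did not call SNHG5 (log2 fold change -0.51, adjusted p = 0.139) or SNHG6 (0.21, adjusted p = 0.0725), so members higher were 0. With each library left out in turn, where the lone library of a group is assumed to vary like the other group, the median of the 10 ranged from -0.40 (without scrambled siRNA replicate 1) to -0.24 (without scrambled siRNA replicate 2), SNHG5 from -0.78 to -0.20, SNHG7 from -0.19 to -0.13 and SNHG12 from -0.23 to 0.10, and the cause was not tested. A fold change over 1.5 left 1 member lower and 0 higher, and a fold change over 2 left 0 in either direction.

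Over all genes, 935 were higher and 831 lower at a fold change over 1.5. There were 597 higher with DESeq2, 4029 higher and 3954 lower with no fold threshold, and 412 higher and 256 lower at a fold change over 2. In the lists, a fold change over 1.5 left 2 other noncoding host genes and 4 other protein-coding host genes lower. It also left 5 snoRNP genes, 0 ribosomal protein host genes and 0 decay factors lower. In each list it left 0 higher, and over all genes it left 5.25% lower and 5.90% higher. A fold change over 2 left 0 in every list. Other noncoding host genes higher were 0 with DESeq2, 2 without structural RNA genes and 0 to 1 with a library left out. Other protein-coding host genes higher were 0 with DESeq2, with library size alone, and with no filter, and 0 to 1 with a library left out. Decay factors higher were 1 to 4 with a library left out.

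For the snoRNA counts the settings were added after seeing the data. With a library left out, the log2 fold change of SNORA73A ranged from -0.41 to 2.36 and that of SNORA73B from 0.77 to 3.01. That of SNORD22 ranged from -2.01 (without RRM2 siRNA replicate 2) to 1.21 (without RRM2 siRNA replicate 1), and limma voom gave -0.29. Of the settings that kept all 4 libraries, SNORA73A passed only in edgeR with library size alone (adjusted p = 0.0164) and with the replicate block (adjusted p = 0.000619).

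The labels give same-numbered libraries only a number in common, and no source used here says whether they were handled together. Their deviations from the group means had a correlation of 0.00621 across genes, which does not settle that. With the replicate number as a block, 953 genes were higher and 845 lower, 7 members were lower and 1 higher, and the median of the members was -0.33. For the single members in this block fit the log2 fold changes were -0.26 for SNHG1, -0.63 for SNHG3, -0.50 for SNHG5, 0.21 for SNHG6, -0.15 for SNHG7, -0.35 for SNHG8, -0.06 for SNHG12, -0.57 for SNHG15, -0.35 for GAS5 and -0.32 for ZFAS1, and the block changed no member's call. In the lists the block gave 10 lower and 1 higher of the other noncoding host genes, 23 and 0 of the ribosomal protein host genes, 17 and 1 of the other protein-coding host genes, 12 and 0 of the snoRNP genes, and 4 and 3 of the decay factors.

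SNHG5 and SNHG12 rested on at most 147 and 146 normalized counts per library, and their 95% intervals, -0.94 to -0.08 and -0.42 to 0.28 in log2 fold change, were the widest of the 10.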
